A study of Mus musculus with 6 samples.

Results

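The genes that set the resting potential of the muscle fibre and carry its action potential were followed in RNA-seq of mouse gastrocnemius. They were the symbols of the count table that begin with Kcn (potassium channels and their accessory subunits), Scn and a digit (voltage-gated sodium channels), Clcn (chloride channels and chloride-proton exchangers), Atp1a or Atp1b (subunits of the sodium pump). The names matched 128 of 24054 symbols. Those with a sum of 60 or more counts over the 6 libraries were kept, which left 56 genes. Of the 72 genes under the minimum, 24 had 0 counts in every library. The nearest genes on either side of the minimum were Kcnu1, with 47 counts in all, and Kcne1l, with 60. By class, they included 15 of 40 voltage-gated potassium channel alpha subunits, 5 of 17 potassium channel accessory subunits, 5 of 15 inward rectifiers, 5 of 14 two-pore-domain channels and 6 of 9 Clcn genes.

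The libraries came from male C57BL/6 mice, 3 with muscle loss of interferon regulatory factor 4 (MI4KO, Myl1-cre with floxed Irf4) and 3 with muscle overexpression of it (MI4OE, Myl1-cre with a Cre-activated IRF4 transgene at Rosa26). Both groups thus carried Myl1-cre, which acts in skeletal muscle fibres and not in the other cells of the tissue. No wild-type or flox muscle was analysed here, so each difference lies between a knockout and an overexpressor. By the labels every mouse ate a high fat diet, but the study's own account is of chow-fed mice, so the diet is in doubt. Ages are not in the labels. Irf4 had 0 to 6 counts in the MI4KO libraries and 2864 to 10557 in the MI4OE libraries. The labels do not say whether each library was a separate animal, so the tests measure the spread between these libraries.

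In skeletal muscle a sodium channel made of the Scn4a pore and beta subunits fires the action potential, and delayed rectifier and transient potassium channels end it. A large resting chloride conductance through Clcn1 keeps the membrane stable, and its loss causes myotonia. Inward rectifiers hold the resting potential in the surface membrane and the transverse tubules, ATP-sensitive channels link it to the energy state of the fibre, and the sodium pump clears the potassium that each action potential releases.

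The potassium channels share a selectivity filter, the loop that lets potassium pass and holds sodium back. Coding bases around it are shown for the most abundant voltage-gated channels, for the ATP-sensitive pair Kcnj11 and Kcnj8, for Kcnf1, and for Kcnj15 and Kcnn4, which are described below. Each stretch lies in a coding exon and was read from a GENCODE vM21 transcript (GRCm38), 5′ to 3′ on the coding strand. The 15 capitals are the filter codons, with 15 bases on either side.
Kcna7 (chr7:45409446-45409490, plus strand): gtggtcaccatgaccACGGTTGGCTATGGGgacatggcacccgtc
Kcnc4 (chr3:107447784-107447828, minus strand): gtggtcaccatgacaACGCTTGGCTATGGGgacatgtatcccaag
Kcnf1 (chr12:17175046-17175090, minus strand): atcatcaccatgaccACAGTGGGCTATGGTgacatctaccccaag
Kcnj11 (chr7:46099481-46099525, minus strand): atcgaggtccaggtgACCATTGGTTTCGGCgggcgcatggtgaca
Kcnj8 (chr6:142566433-142566477, minus strand): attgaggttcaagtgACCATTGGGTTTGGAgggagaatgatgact
Kcnj15 (chr16:95295965-95296009, plus strand): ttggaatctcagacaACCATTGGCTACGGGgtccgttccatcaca
Kcnn4 (chr7:24379183-24379227, plus strand): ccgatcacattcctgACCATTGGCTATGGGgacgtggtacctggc
Of the 45 bases, Kcnj11 and Kcnj8 had 35 in common, Kcna7 and Kcnc4 had 37, and Kcnf1 and Kcnj11 had 16. The reads were 50 bases long. Of the 55 genes found in the annotation, 45 shared no exact stretch of 50 bases with another of them, Kcnj11, Kcnj8 and Kcnf1 included. Reads that map with mismatches were not examined, so an exchange of reads between similar genes is not excluded.

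Abundance differed widely among the genes. Summed over the 56 genes, abundance was 1829 to 2565 TPM (RSEM's abundance unit, adjusted for transcript length) in MI4KO and 2038 to 2267 TPM in MI4OE. Among the most abundant, in order of mean TPM, were Atp1b2, Scn4b, Scn4a, Kcnj11, Kcna7, Clcn1 and Atp1b1, with means from 184 to 35.8 TPM. At the other end, 25 of the 56 genes had a mean under 1 TPM.

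**Figure D1:**
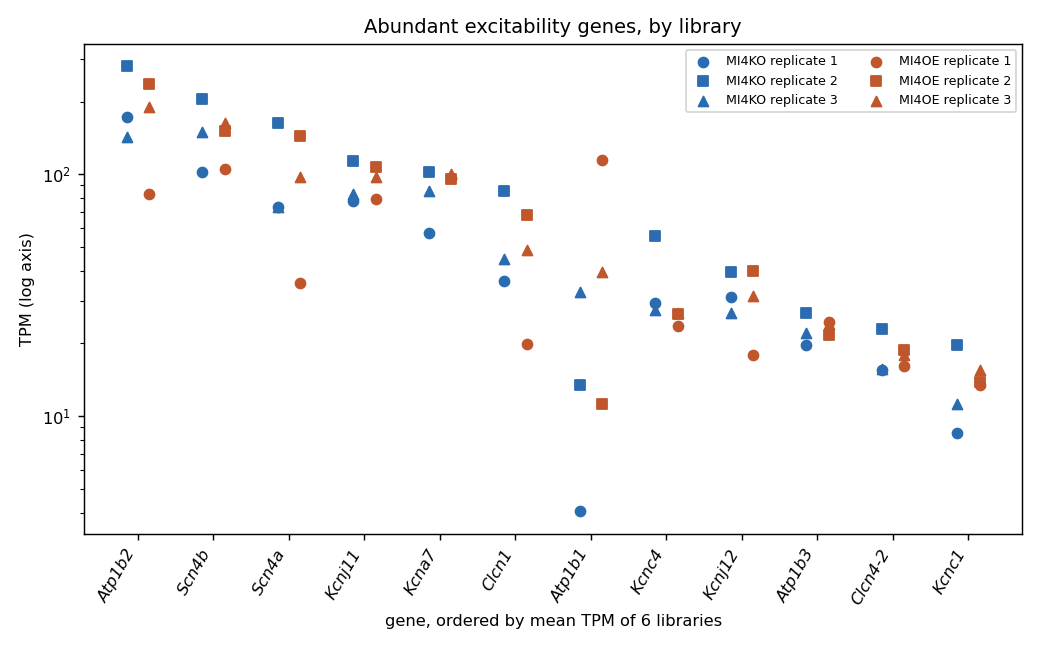
TPM (log axis) of 12 of the 15 most abundant excitability genes in each of the 6 libraries, ordered by mean TPM, with MI4KO in blue and MI4OE in orange. Kcnj11 lay between 77.7 and 114 TPM in all libraries, and Atp1b1 ranged from 4.04 to 114 TPM.

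None of the excitability genes passed the test over all genes. Of the 56, 54 passed the filter on low counts, and 0 of them had an adjusted p under 0.05 by the quasi-likelihood test of edgeR. DESeq2, edgeR's exact test and limma on log2 TPM gave 0 as well. Of all 12660 genes, 0.0237% passed the quasi-likelihood test. An unadjusted p under 0.05 was reached by 8 of the 54 genes, or 14.8%, against 7.58% of all genes. With a change of at least 1.5-fold added, the study's own criterion, 7 genes remained, or 13.0%, against 6.64% of all genes. These were Scn2b, Kcnn4, Kcnk5 and Kcnj8, higher in MI4OE (all genes, 4.36%), and Kcnf1, Kcnj15 and Atp1a4, lower in MI4OE (all genes, 2.28%). The eighth gene was Kcnc4, just short of 1.5-fold. The groups did not overlap in CPM (counts per library size after TMM scaling) for 8 genes, against 12.9% of all genes. They were the same genes with Kcnab2 in place of Kcnf1. Of the 7 genes past the criterion, 5 had a mean TPM under 1.

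As a set the genes were balanced between the groups. Of the 54 tested, 26 had a higher and 28 a lower estimate in MI4OE, and the median log2 fold change was -0.01, beside -4.35e-05 over all genes. Without TMM scaling the median was 0.08, when the median of all genes was 0.09. The role with the most genes was balanced too. Of the 14 voltage-gated potassium channel alpha subunits tested, 8 had a higher and 6 a lower estimate. The 3 sodium channel alpha subunits all had estimates below 0, from -0.22 to -0.03, with adjusted p values of 0.940 or more. Kcna6 and Kcne1l were too sparse to be tested.

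**Figure D2:**
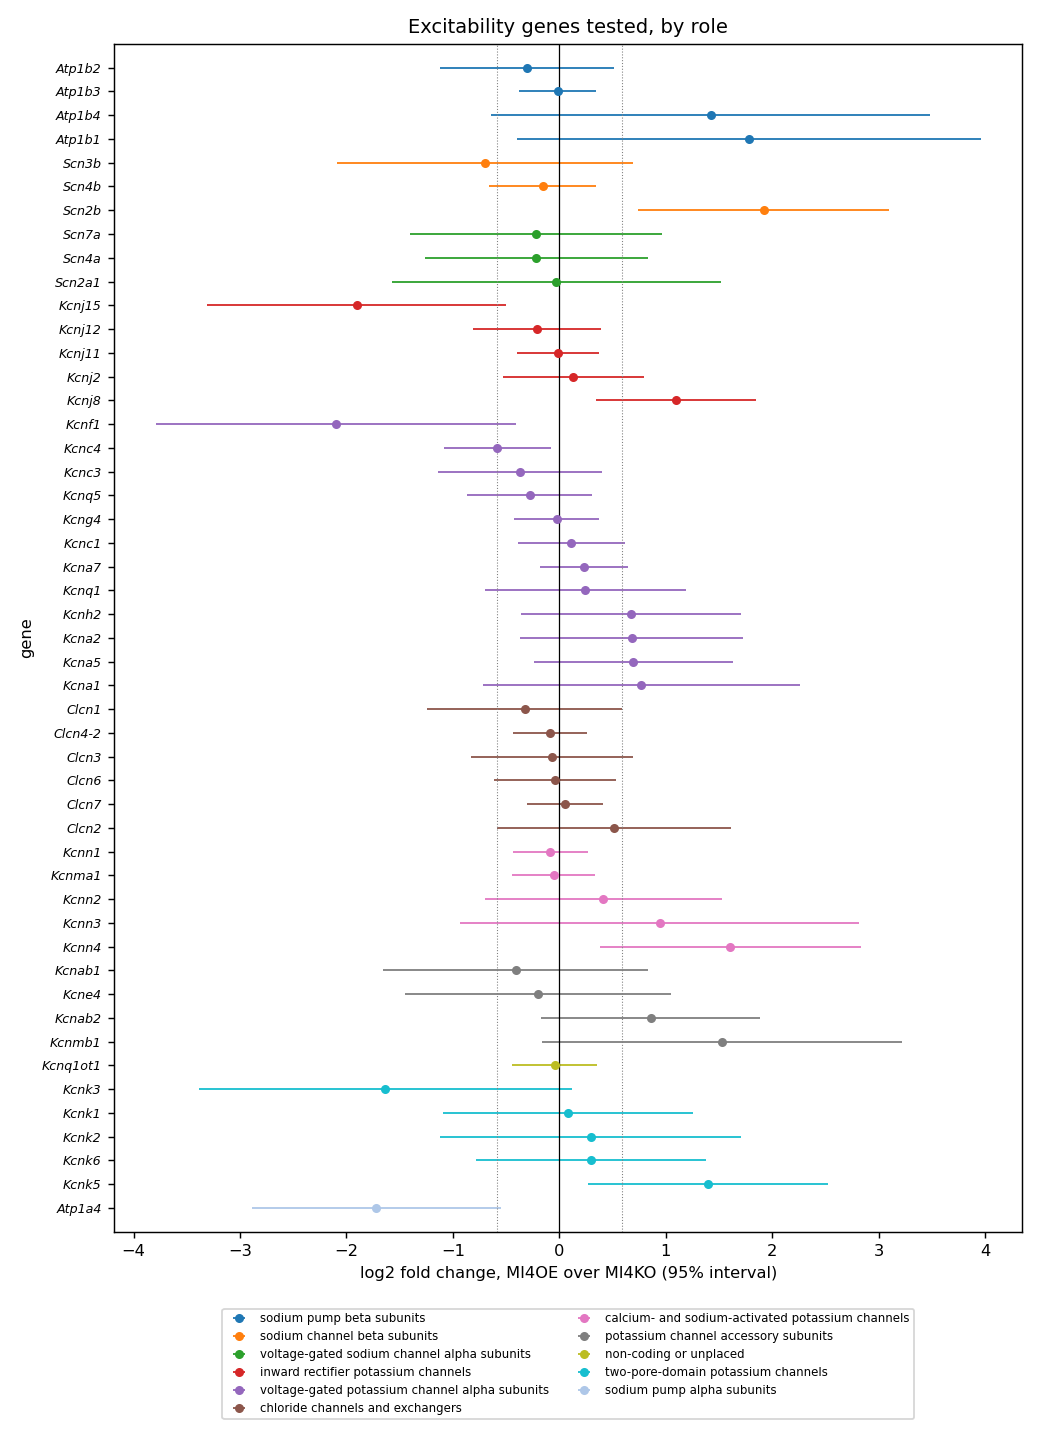
Log2 fold change of MI4OE over MI4KO with its 95% interval for 49 of the 54 excitability genes tested, coloured by role. Dotted lines mark 1.5-fold. Estimates ran from -2.10 for Kcnf1 to 1.92 for Scn2b, and intervals that exclude 0 belong to genes with an adjusted p of 0.496 or more.

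Scn4a, the pore of the muscle sodium channel, supplied 98.8 to 99.7% of the sodium channel alpha TPM in every library. It measured 73.5, 163 and 73.5 TPM in MI4KO replicates 1 to 3 and 35.6, 145 and 97.5 TPM in MI4OE replicates 1 to 3. The groups overlapped, with the highest value in MI4KO replicate 2 and the lowest in MI4OE replicate 1. Its estimate on the log2 scale was -0.21, with an SE of 0.45 (edgeR, adjusted p = 0.940), and it turned to 0.14 without MI4OE replicate 1 and to 0.10 without MI4KO replicate 2. Scn2a1 and Scn7a stayed at or below 0.68 TPM.

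Scn4b, which is linked to resurgent sodium current, was 152 ± 51.2 and 140 ± 30.5 TPM (SD, n = 3), with overlapping groups.

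Scn2b, a beta subunit best known from neurons, was a minor transcript with separate groups. It measured 0.05, 0.12 and 0.15 TPM in MI4KO and 0.58, 0.32 and 0.37 TPM in MI4OE, from 4 to 13 and 22 to 36 counts. Every MI4OE library was above every MI4KO library. Its log2 fold change of 1.92 had an SE of 0.51 (edgeR, adjusted p = 0.496). It passed the criterion with each library left out. The gene lies next to Scn4b on chromosome 9 (GRCm38). The 10 Schwann cell genes, a sign of nerve in the sample, summed to 27.9, 129 and 30.6 TPM in MI4KO and 83.2, 227 and 79.2 TPM in MI4OE. Of these, 9 were tested, all 9 had a higher estimate in MI4OE, and 0 reached an unadjusted p of 0.05. Their part in the Scn2b values was not tested. In bulk tissue, more cells of a type and more RNA per cell cannot be told apart.

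Kcna7 and Kcnc4 led the voltage-gated potassium channels. Kcna7, a Kv1-family channel found mainly in muscle, was 57.3, 103 and 85.0 TPM in MI4KO and 97.0, 96.1 and 100.2 TPM in MI4OE. The 3 MI4OE libraries lay close together, inside the range of MI4KO, and the log2 fold change was 0.23 with an SE of 0.18 (edgeR, adjusted p = 0.840). Kcna7 held 39.8 to 53.7% of the voltage-gated potassium alpha TPM in MI4KO and 51.8 to 58.5% in MI4OE. Kcnc1, a fast delayed rectifier, was 13.2 ± 5.86 and 14.3 ± 1.06 TPM (SD, n = 3). Its longer transcript, of 7788 bases, took 81.9 to 86.4% of the gene in all 6 libraries.

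Kcnc4, a rapidly inactivating channel of fast muscle, was 29.5, 55.6 and 27.6 TPM in MI4KO and 23.6, 26.5 and 26.6 TPM in MI4OE. The groups did not overlap, but 2 of the MI4KO libraries lay within 3 TPM of the MI4OE range and the third stood far above it. The log2 fold change was -0.58 with an SE of 0.22 (edgeR, adjusted p = 0.585), and it was -0.36 without MI4KO replicate 2. Its unadjusted p was under 0.05 in only 8 of the 15 alternatives. As a share of voltage-gated potassium alpha TPM, Kcnc4 was 17.4 to 23.3% in MI4KO and 14.2 to 14.4% in MI4OE. Kcne3, the accessory subunit that pairs with Kcnc4 in muscle, had 4 to 10 counts per library and lay under the count minimum.

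Kcnf1 had the lowest estimate of all the excitability genes tested. It encodes a silent subunit, which makes no channel alone and alters the channels it joins. Kcnf1 was 16.9, 14.5 and 3.36 TPM in MI4KO and 0.85, 5.13 and 2.98 TPM in MI4OE. MI4KO replicate 3 lay inside the MI4OE range, so the groups overlapped. Its estimate of -2.10 on the log2 scale had an SE of 0.73 (edgeR, adjusted p = 0.556). It no longer met the criterion without MI4KO replicate 1, at -1.51, or without MI4OE replicate 3, at -2.11. Its share of voltage-gated potassium alpha TPM was 11.7, 6.10 and 2.12% in MI4KO and 0.513, 2.77 and 1.61% in MI4OE. Kcng4, another silent subunit, was 12.5 ± 0.365 and 13.1 ± 1.80 TPM (SD, n = 3) and was named after its values were seen.

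**Figure D3:**
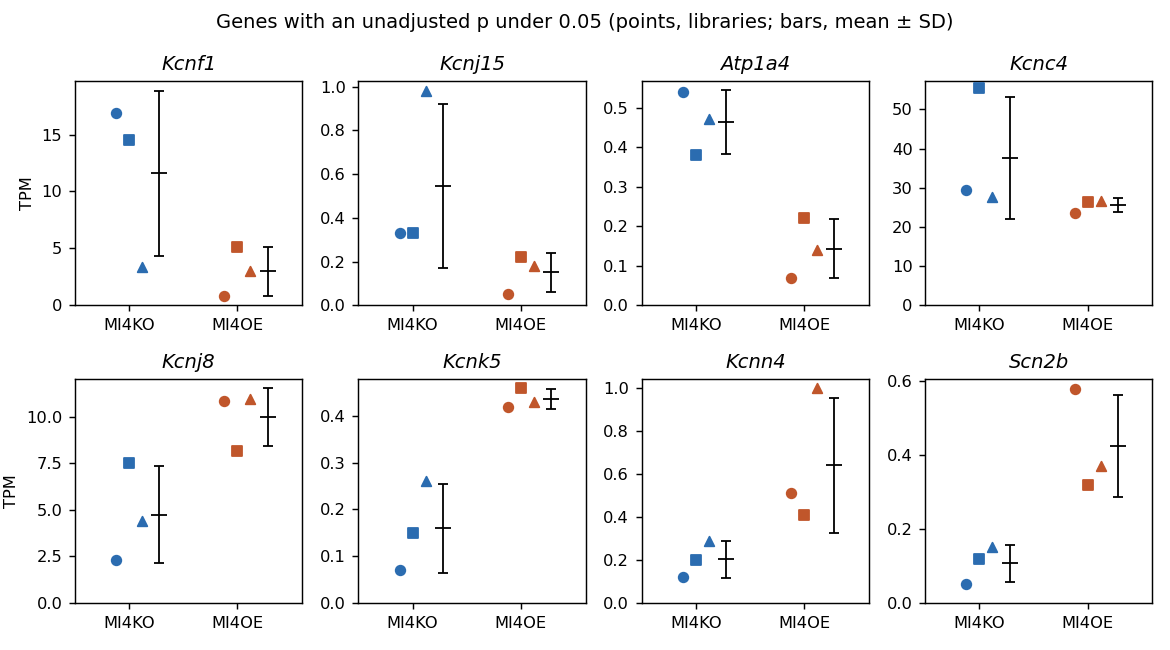
TPM of the 8 excitability genes with an unadjusted p under 0.05, with 1 panel per gene, points for libraries and bars for the mean ± SD of 3 libraries. Kcnj8 lay between 8.16 and 10.9 TPM in MI4OE and between 2.32 and 7.51 TPM in MI4KO, whereas the Kcnf1 groups overlapped at 3.36 TPM.

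Among the inward rectifiers, the ATP-sensitive pore of the muscle fibre overlapped between the groups, whereas its vascular relative had separate groups. Kcnj11, which forms the muscle and pancreatic ATP-sensitive channel, was 91.5 ± 19.4 TPM in MI4KO and 94.6 ± 14.0 TPM in MI4OE (SD, n = 3). The 95% interval of its log2 fold change ran from -0.40 to 0.37. Kcnj8, the pore of the ATP-sensitive channel of smooth muscle and pericytes, was 2.32, 7.51 and 4.38 TPM in MI4KO and 10.9, 8.16 and 10.9 TPM in MI4OE. Every MI4OE library was above every MI4KO library. The fold was 2.14, with a log2 fold change of 1.10 and an SE of 0.32 (edgeR, adjusted p = 0.521). It met the criterion in all 15 alternatives, each left-out library included. Kcnj8 took 2.90 to 6.20% of the summed TPM of the pair in MI4KO and at least 7.09% in each MI4OE library.

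Summed markers of the vessel wall were also above MI4KO in every MI4OE library. The 12 mural cell and smooth muscle genes, without Des, which muscle fibres also express, summed to 78.5 to 128 TPM in MI4KO and 146 to 186 TPM in MI4OE. Of the 12, 11 had a higher estimate in MI4OE and 6 reached an unadjusted p of 0.05, none with an adjusted p under 0.05. The endothelial genes summed to 75.6 to 141 TPM and 162 to 265 TPM. Per 100 TPM of mural genes, Kcnj8 was 2.96, 5.88 and 4.07 TPM in MI4KO and 6.03, 4.40 and 7.49 TPM in MI4OE, and on this scale the groups overlapped. By library, the mural sums were 78.5, 128 and 108 TPM in MI4KO replicates 1 to 3 and 180, 186 and 146 TPM in MI4OE replicates 1 to 3. The part of vessel-wall cells in the Kcnj8 values was not tested. The sulfonylurea receptor Abcc9, which partners either pore, was 28.6, 62.3 and 31.8 TPM in MI4KO and 20.1, 49.2 and 39.6 TPM in MI4OE. Its groups overlapped. Abcc8, the receptor of pancreatic channels, stayed at or below 1.12 TPM.

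The Kir2 channels that carry the resting inward rectifier current were led by Kcnj12, at 32.5 ± 6.38 TPM in MI4KO and 29.7 ± 11.1 TPM in MI4OE (SD, n = 3). Kcnj2, mutated in Andersen-Tawil periodic paralysis, was 5.16 ± 2.18 and 5.61 ± 1.24 TPM. Kcnj2 took 8.76 to 16.1% of the pair in MI4KO and 10.3 to 28.1% in MI4OE, with the highest share in MI4OE replicate 1. Kcnj15, an inward rectifier of the Kir4 family, was 0.33, 0.33 and 0.98 TPM in MI4KO and 0.05, 0.22 and 0.18 TPM in MI4OE. The groups were separate, with 24 to 93 counts in MI4KO and 4 to 18 in MI4OE. On the log2 scale Kcnj15 differed by -1.90, SE 0.60 (edgeR, adjusted p = 0.546), and -1.23 without MI4KO replicate 3, when it no longer met the criterion.

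The background and calcium-activated potassium channels were scarce, apart from Kcnn1 and Kcnma1. Kcnn1, a small-conductance channel, was 10.4 ± 1.02 TPM in MI4KO and 10.3 ± 0.919 TPM in MI4OE, and the large-conductance Kcnma1 was 8.49 ± 2.36 and 8.42 ± 1.98 TPM (SD, n = 3). Neither differed beyond the spread of its libraries. Kcnn3, which increases in denervated muscle, was 0.01, 0.10 and 0.17 TPM in MI4KO and 0.27, 0.10 and 0.18 TPM in MI4OE. Of 11 denervation genes 9 were tested, with 6 higher and 3 lower estimates in MI4OE. Chrna1, Chrnd and Myh8 reached an unadjusted p of 0.05, all with higher estimates, and 0 had an adjusted p under 0.05. Chrnd was 0.41, 0.38 and 0.53 TPM in MI4KO and 2.12, 2.05 and 1.94 TPM in MI4OE. Chrna1 was 4.32, 5.16 and 2.82 TPM in MI4KO and 6.05, 9.25 and 6.89 TPM in MI4OE, and the groups of both were separate. The list as a whole summed to 52.1, 60.9 and 41.2 TPM in MI4KO and 51.1, 61.6 and 57.1 TPM in MI4OE, and these sums overlapped.

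Kcnn4, the intermediate-conductance channel of red cells, lymphocytes and endothelium, was 0.12, 0.20 and 0.29 TPM in MI4KO and 0.51, 0.41 and 1.0 TPM in MI4OE. Every MI4OE library was above every MI4KO library, from 4 to 10 against 13 to 25 counts. On the log2 scale the difference was 1.61 with an SE of 0.53 (edgeR, adjusted p = 0.546). Without MI4OE replicate 3 it was 1.18 and no longer met the criterion, nor did it without MI4KO replicate 1 or 2. The erythrocyte genes summed to 740 to 1001 TPM in MI4KO and 937 to 2420 TPM in MI4OE, with Hba-a2 and Hbb-bs at 0, and the macrophage and leukocyte genes to 64.2 to 120 and 45.7 to 97.2 TPM. The 12 endothelial genes, whose sums did not overlap between the groups, all had a higher estimate in MI4OE, 7 with an unadjusted p under 0.05 and 0 with an adjusted p under 0.05. Hba-a2 and Hbb-bs aside, no gene of these lists was at 0 in all libraries. The part of these cell types in the Kcnn4 values was not tested.

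Kcnk5, an acid-sensitive background channel of the tandem-pore class, was 0.07, 0.15 and 0.26 TPM in MI4KO and 0.42, 0.46 and 0.43 TPM in MI4OE. The groups were separate, and the log2 fold change was 1.40 with an SE of 0.48 (edgeR, adjusted p = 0.556). These values rest on 4 to 16 and 19 to 25 counts per library, and the criterion was met in 2 of the 6 fits that left out a library. Kcnk2, the most abundant gene of its class, a mechanosensitive channel, was 0.71 ± 0.312 and 0.93 ± 0.538 TPM (SD, n = 3). Kcnk3 was 0.15, 1.66 and 0.70 TPM in MI4KO and 0.34, 0.28 and 0.12 TPM in MI4OE, with overlapping groups and an adjusted p of 0.685. It was named after its values were seen. The 10 adipocyte genes all had a lower estimate in MI4OE, 9 with an unadjusted p under 0.05 and 0 with an adjusted p under 0.05. Their median log2 fold change was -3.60. They summed to 2238, 3380 and 5553 TPM in MI4KO and 2022, 1119 and 1422 TPM in MI4OE. Adipoq alone was 11.2, 28.7 and 114 TPM in MI4KO and 1.17, 9.18 and 2.05 TPM in MI4OE. The part of adipocytes in the Kcnk3 values was not tested.

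The accessory subunits were few. Kcnab1, a beta subunit that inactivates Kv1 channels, was the most abundant, at 5.18 ± 2.01 TPM in MI4KO and 4.30 ± 2.94 TPM in MI4OE (SD, n = 3). Kcnab2, named after its values were seen, had separate groups at 0.10 to 0.20 and 0.29 to 0.34 TPM, with an adjusted p of 0.724. The only non-coding gene, Kcnq1ot1, is antisense to Kcnq1, and the strand setting of the counting was not given in the sources used here. It was 0.89 ± 0.291 and 0.89 ± 0.141 TPM.

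Clcn1, the muscle chloride channel, was 36.3, 85.1 and 44.7 TPM in MI4KO and 19.9, 68.1 and 48.9 TPM in MI4OE. The groups overlapped, with the lowest value in MI4OE replicate 1 and the highest in MI4KO replicate 2. The log2 fold change was -0.33 with an SE of 0.39 (edgeR, adjusted p = 0.885), and -0.0038 without MI4OE replicate 1. Clcn1 took 57.1 to 64.8% of Clcn TPM in MI4KO and 41.1 to 62.5% in MI4OE. The ratio of Clcn1 to Scn4a transcripts was narrower than either gene, from 0.471 to 0.608 over the 6 libraries. Clcn4-2, an endosomal chloride-proton exchanger, was 18.1 ± 4.24 and 17.6 ± 1.37 TPM (SD, n = 3), and the 5 Clcn genes other than Clcn1 had adjusted p values of 0.853 or more.

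The libraries differed in how much of their signal lay in long transcripts. The genes tested were split into 10 bins of transcript length. In the longest bin, from 6257 bases, the median log2 CPM deviation was 0.25 in MI4KO replicate 2 and 0.18 in MI4OE replicate 2, and -0.19 in MI4OE replicate 1 and -0.17 in MI4KO replicate 1. In the shortest bin the signs were opposite, with 0.42 in MI4OE replicate 1 and -0.35 in MI4KO replicate 2. Scn4a, of 6598 bases, was highest in MI4KO replicate 2 and lowest in MI4OE replicate 1, as was Clcn1, of 3545 bases. Scn4a was 365 CPM in MI4KO replicate 1 and 306 CPM in MI4KO replicate 3, where the medians of the longest bin were -0.17 and -0.12. In the bin that holds Clcn1 the medians lay between -0.082 and 0.097. Kcnc1, of 7788 bases, was highest in MI4KO replicate 2 and lowest in MI4KO replicate 1. The part of transcript length in the values of single libraries was not tested. When the offsets of the fit were made to depend on length, an alternative added after the data were seen, 7 genes met the criterion and 0 had an adjusted p under 0.05, and Scn4a was at -0.26.

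**Figure D4:**
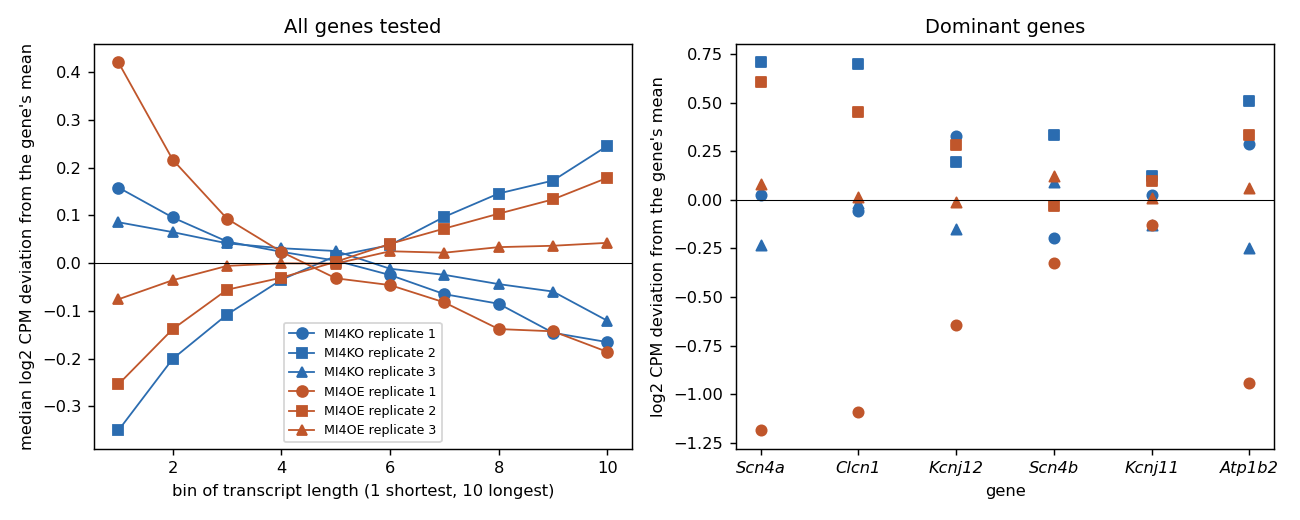
Left, median log2 CPM deviation of each library from the mean of each gene, in 10 bins of transcript length over all genes tested. Right, the log2 CPM deviation of Scn4a, Clcn1, Kcnj12, Scn4b, Kcnj11 and Atp1b2 by library. In the longest bin MI4KO replicate 2 stood at 0.25 and MI4OE replicate 1 at -0.19.

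Of the sodium pump alpha subunits, Atp1a4 met the criterion. Atp1a4, the sperm isoform, was 0.54, 0.38 and 0.47 TPM in MI4KO and 0.07, 0.22 and 0.14 TPM in MI4OE. Its groups were separate and its log2 fold change was -1.72 with an SE of 0.50 (edgeR, adjusted p = 0.521). It met the criterion with each library left out. It had 3 to 34 counts per library, and RSEM shares reads among similar transcripts, so its level is uncertain.

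The beta subunits, which bring the pump to the membrane, varied more from library to library than between the groups. Atp1b1 was 4.04, 13.5 and 32.5 TPM in MI4KO and 114, 11.2 and 39.6 TPM in MI4OE, a 28.3-fold range. The groups overlapped, and MI4OE replicate 1 stood above all others. The log2 fold change was 1.78 with an SE of 0.94 (edgeR, adjusted p = 0.726), and 0.53 without MI4OE replicate 1. Atp1b2, the usual beta subunit of fast muscle, was 173, 280 and 143 TPM in MI4KO and 82.8, 235 and 189 TPM in MI4OE, with its lowest value in that same library. Atp1b1 therefore made up 51.2% of beta TPM in MI4OE replicate 1 and 2.05 to 16.4% in the other 5 libraries. Atp1b3 was 22.9 ± 3.62 and 23.4 ± 1.46 TPM (SD, n = 3). Atp1b4, a muscle protein of the nuclear envelope, was 1.49 TPM in MI4OE replicate 1 and 0.10 to 0.44 TPM elsewhere, and its estimate turned from 1.42 to -0.04 without that library.

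Slow-fibre RNA was highest in the library with the most Atp1b1 and Atp1b4. The 11 slow-fibre genes summed to 21.6, 173 and 155 TPM in MI4KO and to 10769.6, 33.1 and 1048 TPM in MI4OE, and no gene of the list was at 0 in all libraries. The 3 libraries with the most Atp1b1 included the 2 with the most slow-fibre RNA, and MI4KO replicate 1 was lowest for both. Of the slow-fibre genes 10 were tested and all 10 had a higher estimate in MI4OE, 8 with an unadjusted p under 0.05 and 0 with an adjusted p under 0.05. Fast-fibre genes summed to 263434 to 294345 TPM in MI4KO and 191413 to 269172 TPM in MI4OE, with 11 of 13 estimates lower in MI4OE. Muscle identity genes were present in all libraries, with Acta1 at 43556 TPM or more. The part of the slow-fibre RNA in the Atp1b1 values was not tested.

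**Figure D5:**
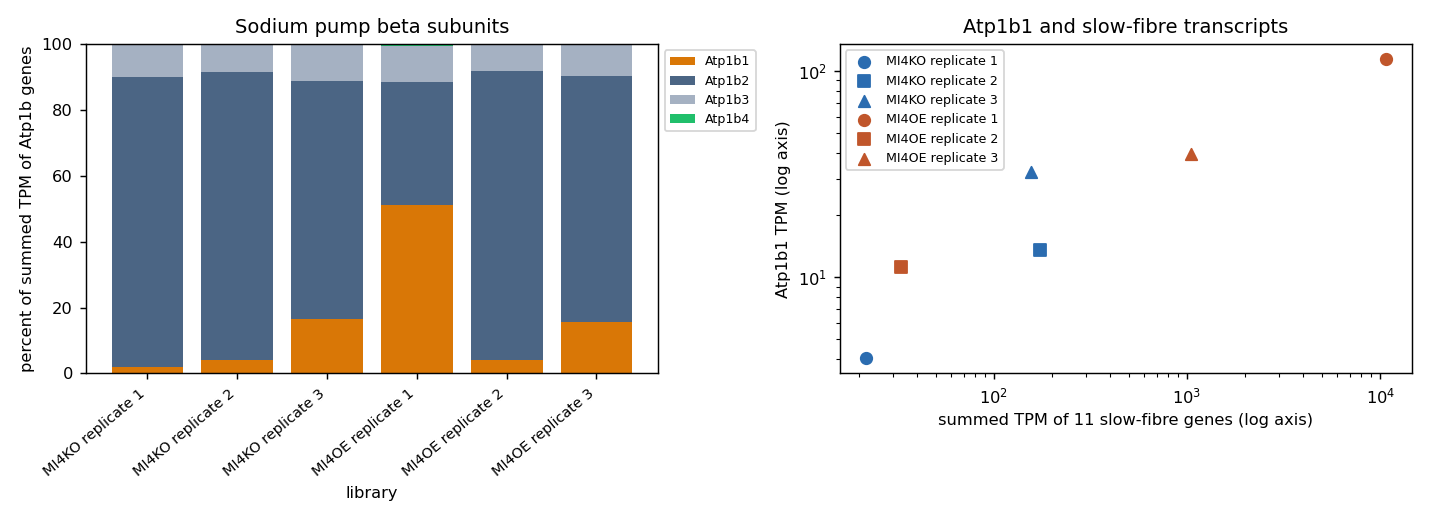
Left, the share of each Atp1b gene in their summed TPM by library. Right, Atp1b1 TPM against the summed TPM of 11 slow-fibre genes, both on log axes. Atp1b1 took 51.2% in MI4OE replicate 1, the library with 10769.6 TPM of slow-fibre genes, and 2.05% in MI4KO replicate 1, which had 21.6 TPM.

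Genes that work with these channels and pumps were followed as a list of 36, of which 27 could be tested. Their median log2 fold change was -0.03, from 13 higher and 14 lower estimates. None had an adjusted p under 0.05, and 5 of the 27 reached an unadjusted p of 0.05, against 7.58% of all genes. Fxyd6, a regulator of the sodium pump, was 2.52 to 16.8 TPM in MI4KO and 126, 9.91 and 32.8 TPM in MI4OE, and like Atp1b1 it was highest in MI4OE replicate 1. Fxyd7, of the same family, was 0 to 0.47 TPM in MI4KO and 1.45 to 2.07 TPM in MI4OE, with separate groups. Sgk1, a kinase that raises the surface level of sodium channels and pumps, was 93.8, 164 and 66.2 TPM in MI4KO and 40.4, 55.9 and 60.6 TPM in MI4OE. Its groups were separate, with a log2 fold change of -1.09 and an SE of 0.29 (edgeR, adjusted p = 0.496). The other 2 were Slc12a4, a potassium-chloride cotransporter, at 0.79 and Hcn2, a pacemaker channel, at -0.99 on the log2 scale. Fxyd1, or phospholemman, the main pump regulator of muscle, was 975 to 1174 TPM in MI4KO and 1033 to 1673 TPM in MI4OE, with overlapping groups.

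IRF4 binds interferon-stimulated response elements, MEF2 factors drive many muscle genes, and myogenic factors bind E-boxes, so these motifs were looked for in promoter windows of 250 bases before and 50 after the start site (RefSeq, GRCm38.p6). Windows were at hand for 40 of the 56 genes, 52 windows in all. The element GAAANNGAAA, read on both strands, was in 3 of the 52 windows (5.77%), which belong to Kcna7 and Kcnab1, and in 3.44% of all windows. The MEF2 motif was in 1 window (1.92%), that of Clcn1, and in 0.557% of all windows. The E-box CAGCTG was in 11 windows (21.2%) of 9 genes, and in 16.3% of all windows. By GENCODE, Kcna7 starts upstream of its RefSeq window, so its match lies inside the gene, and no window of it is shown. Of the 2 Kcnab1 matches, 1 also lies inside the GENCODE gene. The 250 bases before the Clcn1 start site, the same in both annotations, are shown because Clcn1 is a leading muscle channel, with the match in capitals, 51 bases before the start.
Clcn1 (chr6:42286435-42286684, plus strand): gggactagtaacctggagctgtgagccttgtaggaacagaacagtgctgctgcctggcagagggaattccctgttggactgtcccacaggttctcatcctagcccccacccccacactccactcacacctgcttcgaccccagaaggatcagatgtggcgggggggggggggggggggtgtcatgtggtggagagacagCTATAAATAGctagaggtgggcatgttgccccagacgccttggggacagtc
Neither Kcna7 nor Clcn1 differed beyond the spread of its libraries, and a match is a description of the letters only. All 8 genes with an unadjusted p under 0.05 had a window, and 0 of them had a match to any of the 3 motifs.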

How the data were processed

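Stranded, mRNA-enriched libraries of 6 gastrocnemius samples were sequenced as single reads of 50 bases. Per the labels and the methods, the authors made FASTQ files with bcl2fastq 2.17, mapped to a UCSC transcript set with Bowtie2 2.1.0 and quantified with RSEM 1.2.15; the genome build is not given in the sources used here. The deposited expected counts are RSEM estimates, not normalized, and RSEM shares a read among the transcripts it matches. As deposited, TPM is RSEM's abundance adjusted for transcript length, and the percent of a gene's abundance in each transcript is also RSEM's, from the authors. The deposited fold changes, p-values and false discovery rates of the authors stayed out of all steps. Counts per gene were the same in the table of all libraries and in each library's own file (0 genes differing).

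Library totals were 18828605 to 29239585 counts, of which the 56 genes took 0.376 to 0.519%. Expected counts were rounded and fitted over all genes with edgeR 4.0.16 in R 4.3.3 (TMM, filterByExpr with a minimum count of 10 and a minimum total of 15, glmQLFit and glmQLFTest, Benjamini-Hochberg over 12660 genes). Levels between genes were compared in TPM, and CPM used TMM-scaled library sizes. Standard errors were taken from the fold change and the F statistic. DESeq2 1.42.0 and limma 3.58.1 were alternatives.

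The genes and lists were chosen with earlier results of these data known. Genes were named by rule: Irf4, the 15 most abundant, the most abundant of each role, all with an unadjusted p under 0.05, and 20 known muscle channel and pump genes. Kcng4, Kcnk3, Kcnab2, Kcna6, Kcne1l, Scn2a1 and Scn7a were added after their values were seen, as were the ratios between genes. The lists were channel and pump partners, slow fibre, fast fibre, muscle identity, denervation, endothelium, mural cell, fibroblast, Schwann cell, adipocyte, macrophage and leukocyte, and erythrocyte genes. Fibroblast genes summed to 165 to 252 TPM in MI4KO and 278 to 367 TPM in MI4OE, with 9 of 10 estimates higher in MI4OE. Of the 10 muscle identity genes, 8 had a lower estimate in MI4OE. Of the 11 macrophage and leukocyte symbols, 10 were in the table. Some of the genes are not reported here, although the counts over all genes include them. Groups came from the genotype label alone.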

Additional observations from a re-analysis of the deposited data

How the results depend on the processing

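No paired analysis was possible because no label ties a library of 1 group to a library of the other. Over 15 alternatives, 1 of them (length-dependent offsets) added after the data were seen, 0 of the 56 genes reached an adjusted p under 0.05, and the lowest adjusted p among the 27 excitability genes named by rule and tested was 0.0659, for Scn2b with the exact test. The 8 genes with an unadjusted p under 0.05 kept their direction in all alternatives that could test them. The number past 1.5-fold with an unadjusted p under 0.05, 7 in the main analysis, was 3 with a mean CPM of at least 1, which left out 4 of these genes, and 2 with limma on log2(TPM + 1), where the offset shrinks low values. It was 7 to 9 in the other fits of all 6 libraries, and 4 to 9 when a library was left out, with 4 without MI4OE replicate 3. The median log2 fold change of the genes was 0.081 without TMM, and -0.06 to 0.06 when a library was left out.

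Of these 27 genes, which leave out Irf4 and the genes added after their values were seen, 15 kept their direction throughout and 12 did not. Without TMM the log2 fold change became 0.073 for Kcnj11, 0.082 for Atp1b3, 0.0041 for Clcn4-2, 0.014 for Kcnn1, 0.024 for Kcnma1 and 0.037 for Kcnq1ot1. With limma it became 0.058 for Kcnj11 at both offsets, 0.039 and 0.040 for Atp1b3 at offsets 1 and 0.1, and 0.0082 and 0.029 for Kcnq1ot1. The median of all genes also moved, to 0.090 without TMM and to 0.043 and 0.061 with limma at offsets 1 and 0.1. Relative to it, each of these values was below 0 except Kcnj11 with limma at offset 1, at 0.015, and Clcn4-2 changed sign through this common shift alone. With a library left out, values ran from -0.64 to 0.14 for Scn4a, -0.094 to 0.042 for Kcnj11, -0.43 to 0.0020 for Kcnj12, -0.13 to 0.077 for Atp1b3, -0.030 to 0.36 for Kcnc1, -0.15 to 0.0061 for Kcnn1, -0.18 to 0.032 for Kcnma1, -0.15 to 0.32 for Kcnj2, -0.13 to 0.10 for Kcnq1ot1, -0.32 to 0.71 for Kcnk2 and -0.042 to 1.96 for Atp1b4. With a count minimum of 30 or 120 in place of 60, there were 64 or 45 genes. Genes with 3 to 36 counts per library, such as Scn2b, Kcnn4, Kcnk5 and Atp1a4, rest on few reads.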
